A study of Homo sapiens with 12 samples.

Results

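The 10 genes described here are regulators and markers of the epithelial-mesenchymal transition (EMT), chosen by name and found by their Ensembl identifiers. All 10 were in the table of 60676 genes, and all 10 were among the 20364 genes that had at least 10 counts summed over the 12 libraries and were tested. They are *CDH1*, *ESRP1* and *GRHL2* on the epithelial side, the markers *VIM*, *CDH11* and *S100A4* on the mesenchymal side, and the transcription factors *ZEB1*, *ZEB2*, *SNAI2* and *TWIST1*. The choice used no measured value, although earlier results of these data were known when it was made.

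In EMT, epithelial cells lose their contacts and polarity and gain a spindle shape and motility. ZEB, SNAI and TWIST factors repress epithelial genes such as *CDH1*, which encodes the adhesion protein E-cadherin, while GRHL2 activates epithelial genes and opposes ZEB1, and ESRP1 directs the splicing of transcripts to their epithelial forms. Carcinoma cells often hold intermediate states, with keratins and E-cadherin beside vimentin.

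To examine the effect of SFRP2 overexpression on 2 surfaces, RNA was sequenced from 4 groups of 3 libraries each: COL1-PC3SFRP2, CCP-PC3SFRP2, COL1-PC3 and CCP-PC3. PC3 is an established human prostate cancer line from a bone metastasis. PC3SFRP2 cells carried a Sleeping Beauty transposon with the *SFRP2* coding sequence, and the control PC3 cells carried the same plasmid without it, so that both expressed a red fluorescent protein and puromycin resistance and had been selected and sorted. No independently made lines are named, so an effect of SFRP2 cannot be told apart from other differences of the 2 lines. Each flask received 100000 cells, on cell culture-treated polystyrene that was either coated with collagen 1 from rat tail (COL1) or uncoated (CCP, in the sample labels Nunc), and RNA was taken on day 5. The sample labels call the 3 libraries of each group biological replicates.

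The libraries held 5529459 to 6309800 counts in COL1-PC3SFRP2, 7446136 to 8380405 in CCP-PC3SFRP2, 5893267 to 9059700 in COL1-PC3 and 7472812 to 9975972 in CCP-PC3. *SFRP2* itself checked the labels, with log2 fold changes between PC3SFRP2 and PC3 of 9.95 on COL1 and 9.93 on CCP (adjusted p = 1.17e-07 and 1.18e-07, edgeR's quasi-likelihood test). The 6 markers of epithelial and PC3 cells were keratins, *EPCAM*, *PSCA* and *CD44*. They summed to 4144 to 7419 CPM (counts scaled to library size with TMM factors) in COL1-PC3SFRP2. In the other 9 libraries the sum was 2340 to 3392 CPM. In each comparison below that has COL1-PC3SFRP2 on top, 3 of the 6 were called higher. Of all genes tested, 18.1% were called higher against COL1-PC3 and 19.9% against CCP-PC3SFRP2. The 6 markers had a median GC content of 55.8%. *KRT19* had 861, 722 and 2248 CPM in libraries 1, 2 and 3 of COL1-PC3SFRP2. Of these 6, *CD44* was lower in COL1-PC3SFRP2, at 707 to 740 CPM against 763 to 873 CPM in COL1-PC3. In edgeR none of the 6 was called lower, and DESeq2 called 1 lower against CCP-PC3SFRP2. The 6 leukocyte markers summed to at most 0.948 CPM and the 6 fibroblast markers to at most 3.002 CPM in any library. The 5 endothelial markers summed to 7.19 to 17.4 CPM, with *PECAM1* at up to 15.9 CPM. The 6 markers of androgen-dependent luminal cells summed to 10.7 to 60.9 CPM, and both ends of this range were in COL1-PC3SFRP2. Among them, *TMPRSS2* had 6.32, 11.3 and 58.9 CPM in libraries 1, 2 and 3 of COL1-PC3SFRP2. The group COL1-PC3SFRP2 stood apart in a way that touches every result below. Its fold change against COL1-PC3 followed the GC content of the genes, with a Spearman correlation of 0.794 across 13655 genes. The genes are not independent replicates. Against CCP-PC3SFRP2 the correlation was 0.829. A weaker trend was present between COL1-PC3 and CCP-PC3, at 0.363. Transcripts of the mitochondrial genome took 7.17% to 16.8% of the counts in COL1-PC3SFRP2, against 19.8% to 24.02% in the other 9 libraries. Library 3 of this group had the lowest mitochondrial share and correlated with the other libraries of its group at 0.932 and 0.945 (Pearson, log2 CPM across genes), against 0.974 to 0.986 within the other groups. In a further table of the same deposit the column of this library's name holds other counts. Values are therefore also given after leaving library 3 out, with these other counts in its place (the substituted library), and after removing from every library its own trend with GC content and transcript length (the GC correction).

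**Figure D1:**
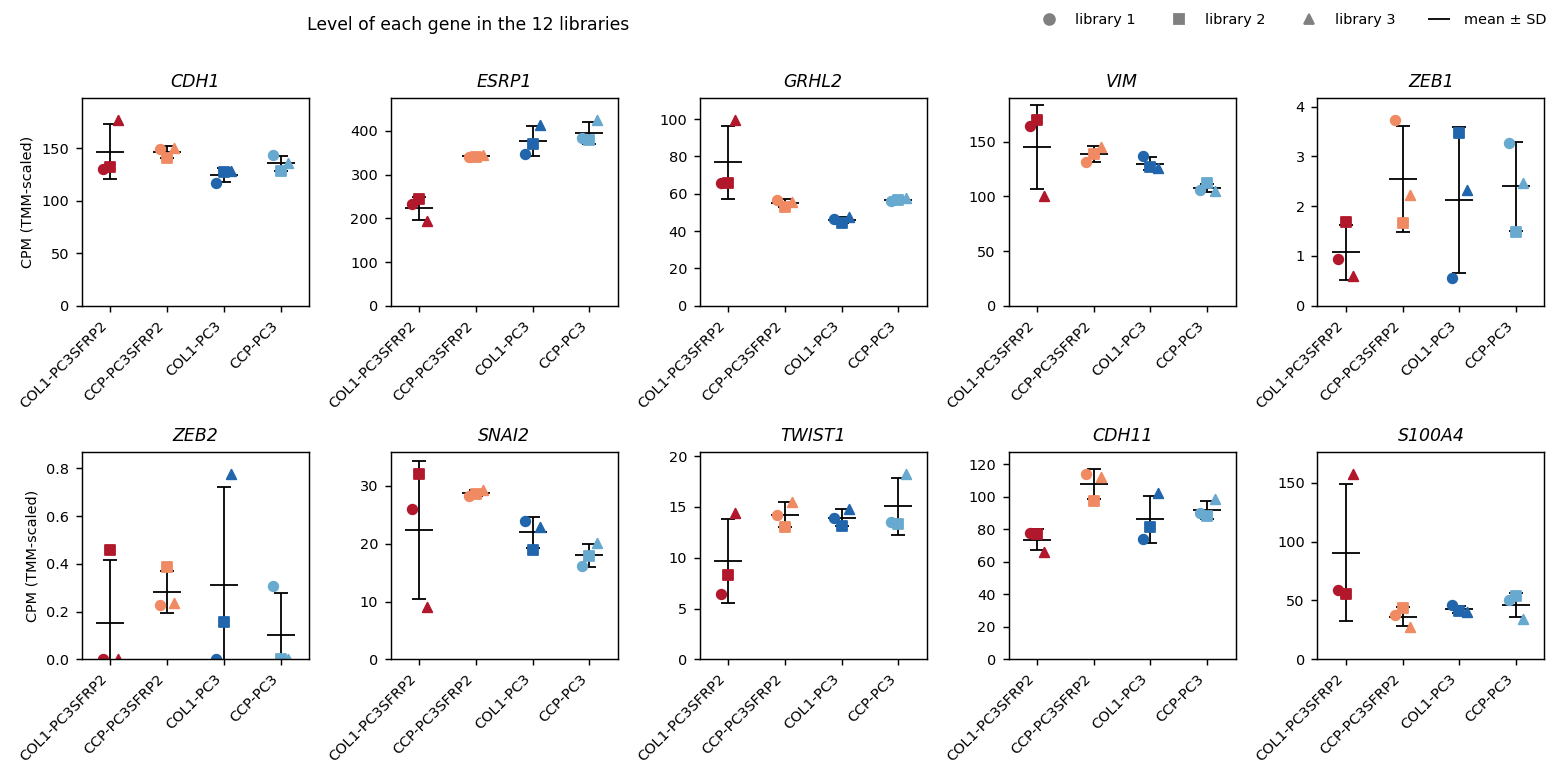
Level of the 10 genes in the 12 libraries. The y axes give CPM after TMM scaling from 0, points are libraries (circle, square and triangle for libraries 1, 2 and 3) and bars give the mean ± SD of 3 libraries, cut at 0. Library 3 of COL1-PC3SFRP2 lies apart from the other libraries of its group for *S100A4* (158 CPM against 58.8 and 55.7) and for *SNAI2* (8.98 CPM against 26.1 and 32.1).

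Between COL1-PC3SFRP2 and COL1-PC3, *GRHL2* and *S100A4* were higher, *ESRP1* was lower, and the remaining 7 genes did not pass the test. Of all genes tested, 35.1% passed at a Benjamini-Hochberg adjusted p under 0.05 in edgeR (18.1% higher and 17.1% lower), so that 3 of 10 is close to the background. The libraries did not overlap for 4 of the 10 genes, against 43.7% of all genes. The median log2 fold change was -0.09 over the 10 genes and 0.01 over all genes tested. Between COL1-PC3SFRP2 and CCP-PC3SFRP2, *S100A4* was higher and *ESRP1* and *CDH11* were lower, and 37.6% of all genes tested passed (19.9% higher and 17.7% lower). The libraries did not overlap for 4 of the 10 genes, against 50.7% of all genes. Here the median log2 fold change was -0.45 over the 10 genes and -0.04 over all genes tested. Both comparisons share the libraries of COL1-PC3SFRP2.

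**Figure D2:**
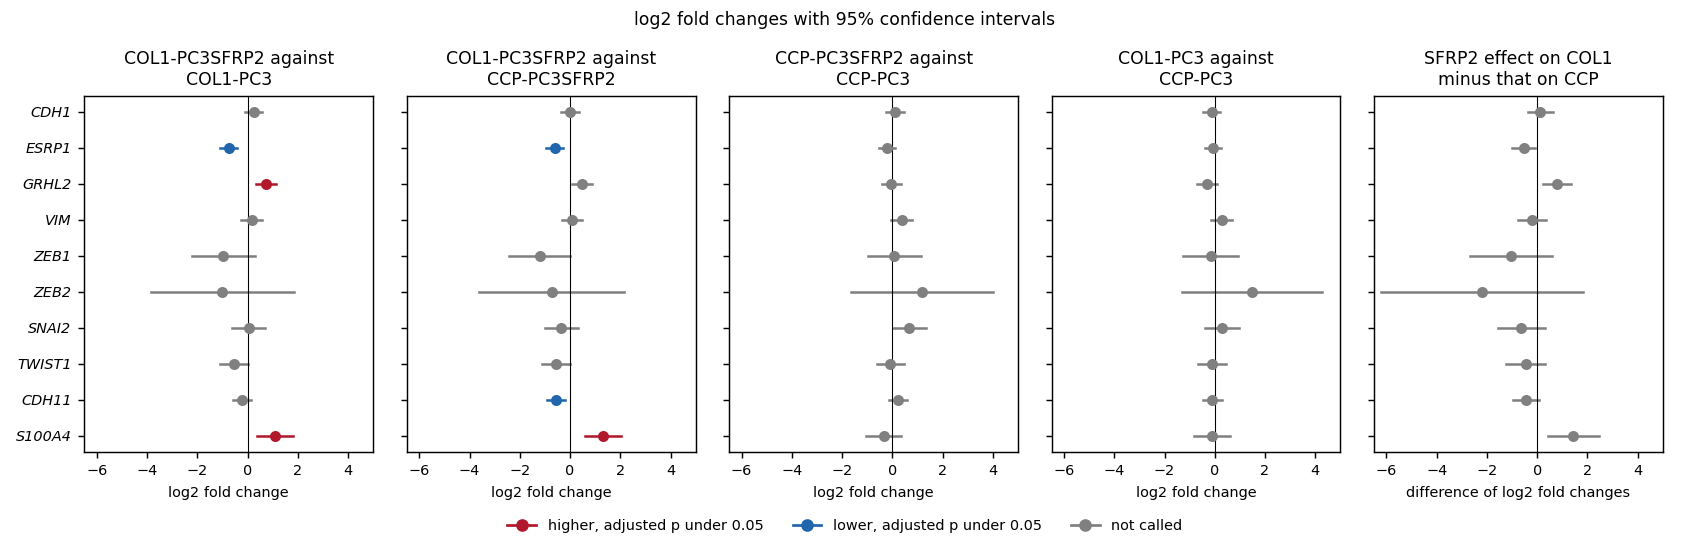
log2 fold changes of the 10 genes in the 4 comparisons and, in the last panel, the SFRP2 effect on COL1 minus that on CCP. The x axes are in log2 units, points are estimates of the edgeR fit and lines their 95% confidence intervals, coloured where the adjusted p was under 0.05. Coloured points stand only in the 2 panels that contain COL1-PC3SFRP2 as the group on top.

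Among the epithelial genes, *ESRP1* gave the lowest adjusted p. It encodes an RNA-binding splicing regulator of epithelial cells and lies on chromosome 8 of GRCh38 from 94641074 to 94707466 (ENSG00000104413). *ESRP1* had 232, 244 and 193 CPM in the 3 libraries of COL1-PC3SFRP2, against 346, 369.8 and 413 CPM in COL1-PC3. All 3 libraries of COL1-PC3SFRP2 lay below all 9 libraries of the other groups, which ranged from 339 to 424 CPM. Its log2 fold change was -0.76 against COL1-PC3 (SE 0.16, adjusted p = 0.00243) and -0.61 against CCP-PC3SFRP2 (SE 0.16, adjusted p = 0.00631), both from edgeR's quasi-likelihood test. After leaving out library 3, *ESRP1* kept its call against COL1-PC3, with a log2 fold change of -0.65. The GC-corrected value was -0.25 (adjusted p = 0.1502) and that with the substituted library -0.42 (adjusted p = 0.224), so that the call was lost. Against CCP-PC3SFRP2 the values were -0.10 (adjusted p = 0.635) and -0.27 (adjusted p = 0.391). The exons of *ESRP1* have 43.9% GC, and the 3213 genes of 40% to 45% GC had a median log2 fold change of -0.59 against COL1-PC3 and -0.62 against CCP-PC3SFRP2.

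*GRHL2*, a transcription factor that activates *CDH1* and other junction genes, moved in the other direction. The gene (ENSG00000083307, chromosome 8 from 101492439 to 101669726) had 65.6, 65.7 and 99.4 CPM in COL1-PC3SFRP2, against 46.3, 44.4 and 47.4 CPM in COL1-PC3. In CCP-PC3SFRP2 it had 52.8 to 56.8 CPM and in CCP-PC3 56.3 to 57.6 CPM. The 3 libraries of COL1-PC3SFRP2 were thus the highest of all 12 and those of COL1-PC3 the lowest. Against COL1-PC3 the log2 fold change was 0.74 (95% confidence interval 0.34 to 1.13, adjusted p = 0.00700, edgeR), and against CCP-PC3SFRP2 it was 0.48 (0.09 to 0.87) with an adjusted p of 0.0526 (0.0246 in DESeq2). The log2 fold change against COL1-PC3 was 0.66 with the GC correction (adjusted p = 0.00225) and 0.52 without library 3 (adjusted p = 0.00186). With the substituted library it was 0.34 (adjusted p = 0.292), and in a fit of only the 6 libraries compared it was 0.73 (adjusted p = 0.0715). The exons have 48.6% GC, and genes of 45% to 50% GC had a median log2 fold change of -0.02, so that *GRHL2* lay further from the median of its GC class than *ESRP1* did from its own. ESRP1 and GRHL2 are both found in epithelial cells, and here the level of one fell while that of the other rose. The log2 ratio of *ESRP1* to *GRHL2* CPM within a library was 1.83, 1.89 and 0.96 in COL1-PC3SFRP2, against 2.90, 3.06 and 3.12 in COL1-PC3. The substituted library held 375 CPM of *ESRP1* and 44.6 CPM of *GRHL2*, both within the ranges of COL1-PC3.

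*CDH1* (ENSG00000039068, chromosome 16 from 68737292 to 68835537) did not pass in any comparison. It had 130.2, 133 and 177 CPM in COL1-PC3SFRP2, against 117, 128 and 128 CPM in COL1-PC3. All 3 values were higher in COL1-PC3SFRP2, but 2 of them by little, and the log2 fold change was 0.24 (95% confidence interval -0.11 to 0.59, adjusted p = 0.289, edgeR). With the substituted library, which held 93.2 CPM of *CDH1*, this value was -0.07. Against CCP-PC3SFRP2, with 149, 140.4 and 151 CPM, the log2 fold change was -0.0024 (95% confidence interval -0.35 to 0.35). By group means, CCP-PC3SFRP2 (147 CPM) and COL1-PC3SFRP2 (146 CPM) were highest, followed by CCP-PC3 (136 CPM) and COL1-PC3 (124 CPM), and the ranges of neighbouring groups overlapped except those of COL1-PC3 and CCP-PC3, although the highest of COL1-PC3 and the lowest of CCP-PC3 both had 128 CPM.

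Among the mesenchymal markers, *S100A4* had the largest fold change. It encodes a small calcium-binding protein, also called fibroblast-specific protein, that is linked to motility and metastasis. The gene (ENSG00000196154, chromosome 1 from 153543613 to 153550136) had 58.8, 55.7 and 158 CPM in COL1-PC3SFRP2, against 45.9, 41.2 and 39.96 CPM in COL1-PC3. In CCP-PC3SFRP2 it had 37.4, 43.5 and 27.6 CPM and in CCP-PC3 50.1, 53.8 and 34.2 CPM. Every library of COL1-PC3SFRP2 was above all of the other 9, but library 3 stood far above its partners. Its log2 fold change was 1.09 against COL1-PC3 (SE 0.34, adjusted p = 0.0200, edgeR) and 1.32 against CCP-PC3SFRP2 (SE 0.34, adjusted p = 0.00653). Left without library 3, these values were 0.44 (adjusted p = 0.0406) and 0.66 (adjusted p = 0.00186). The call against COL1-PC3 was lost with the GC correction (0.55, adjusted p = 0.235), with the substituted library (0.21, adjusted p = 0.673), in a fit of only the 6 libraries compared (1.08, adjusted p = 0.0850), and without library 2 (adjusted p = 0.0653) or library 3 of COL1-PC3 (adjusted p = 0.0754). Against CCP-PC3SFRP2 it was lost after GC correction (0.61, adjusted p = 0.192), with the substituted library (0.43, adjusted p = 0.322) and in the fit of 6 libraries (1.33, adjusted p = 0.0526). Its exons have 54.5% GC, and genes of 50% to 55% GC had a median log2 fold change of 0.53 against COL1-PC3 and 0.57 against CCP-PC3SFRP2. The annotation places *S100A3* on the same strand across part of *S100A4*, and reads there may have been assigned to either gene.

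The promoter of *S100A4* is shown because this gene had the largest change of the mesenchymal markers and because ZEB and SNAI factors bind E-boxes of the sequence CACCTG. The set of RefSeq promoter windows used here covered 4 of the 10 genes (*S100A4*, *VIM*, *ZEB1* and *ZEB2*), and promoters of the other genes were not examined. The RefSeq start used for *S100A4* lies inside the gene as annotated above, which on the minus strand begins at 153550136. A promoter at that outer start was not examined. The 250 bases before the start of *S100A4* (RefSeq, GRCh38.p14, minus strand, chr1:153545807-153546056) contain the motif once, in capitals, with its first base 164 bases before the start:
*S100A4*: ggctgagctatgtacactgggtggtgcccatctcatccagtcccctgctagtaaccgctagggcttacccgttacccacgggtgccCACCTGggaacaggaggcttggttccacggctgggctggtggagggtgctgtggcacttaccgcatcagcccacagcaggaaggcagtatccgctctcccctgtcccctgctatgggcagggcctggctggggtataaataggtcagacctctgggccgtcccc
CACCTG or its reverse CAGGTG occurred in 20.6% of 35116 such windows of 300 bases (250 before and 50 after the start), so that a match is common. It occurred 4 times in 2 of the 7 windows of *ZEB1*, and the windows of *VIM* and *ZEB2* held no match. A match in a window is no evidence that a factor was bound.

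*VIM* encodes the intermediate filament vimentin, the best-known mesenchymal marker, and PC3 cells expressed it in every library. The gene (ENSG00000026025, chromosome 10 from 17228241 to 17237593) had 165, 169.7 and 100.6 CPM in COL1-PC3SFRP2, against 137, 127 and 126 CPM in COL1-PC3. The first and second libraries were above all of COL1-PC3 and library 3 was below. The log2 fold change was 0.16 (95% confidence interval -0.24 to 0.56, adjusted p = 0.552, edgeR) and 0.37 (adjusted p = 0.0128) without library 3. With the GC correction it was -0.05, and with the substituted library, at 218 CPM, it was 0.50 (adjusted p = 0.118). On CCP, *VIM* had 132, 139 and 146 CPM in CCP-PC3SFRP2, against 106, 112 and 105 CPM in CCP-PC3. The groups did not overlap, with a log2 fold change of 0.37 (95% confidence interval -0.04 to 0.77, adjusted p = 1, edgeR) that passed in a fit of these 6 libraries alone (0.41, adjusted p = 0.00139). *VIM* is overlapped by the antisense gene *VIM-AS1*, and since the strand setting of the counting is not given in the sources used here, reads of the 2 genes cannot be told apart. Without library 3 of COL1-PC3SFRP2, *VIM* had 10996 counts in 11 libraries, against 9207 in a second alignment of the same deposit. For *CDH1* these were 11382 and 11268 counts. The cause of the difference for *VIM* was not tested.

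*CDH11* encodes cadherin-11, an adhesion protein of mesenchymal cells and osteoblasts. The gene (ENSG00000140937, chromosome 16 from 64943753 to 65126112) had 77.6, 76.9 and 66.1 CPM in COL1-PC3SFRP2, against 114, 97.4 and 112 CPM in CCP-PC3SFRP2. In COL1-PC3 it had 74.2, 81.5 and 102 CPM, a range that overlapped that of COL1-PC3SFRP2. The log2 fold change was -0.55 against CCP-PC3SFRP2 (SE 0.17, adjusted p = 0.0206, edgeR) and -0.23 against COL1-PC3 (adjusted p = 0.338). After GC correction the value against CCP-PC3SFRP2 was -0.04 (adjusted p = 0.860), with the substituted library -0.38 (adjusted p = 0.221) and without library 3 of CCP-PC3SFRP2 -0.52 (adjusted p = 0.0683). The exons of *CDH11* have 43.3% GC, in the class whose median was -0.62.

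By mean CPM in each group, *ZEB1*, *ZEB2*, *SNAI2* and *TWIST1* were the least abundant of the 10 genes. *ZEB1* had 193 counts and *ZEB2* 21 counts in all 12 libraries together, and *ZEB2* was at 0 in 5 libraries. *ZEB1* (ENSG00000148516) had 6, 11 and 3 counts in COL1-PC3SFRP2, against 3, 22 and 21 in COL1-PC3 and 33, 13 and 19 in CCP-PC3SFRP2. The log2 fold change was -0.96 against COL1-PC3 (95% confidence interval -2.21 to 0.29, adjusted p = 0.221, edgeR) and -1.20 against CCP-PC3SFRP2 (-2.41 to 0.01, adjusted p = 0.112). Against CCP-PC3SFRP2 it passed without a filter on low counts (-1.26, adjusted p = 0.0451) and without library 2 of COL1-PC3SFRP2 (-1.74, adjusted p = 0.0473). The confidence intervals of *ZEB2* (ENSG00000169554) spanned -3.86 to 1.83 on COL1 and -1.65 to 4.003 on CCP, so that its counts bound the change little. *ZEB1* is overlapped by *ZEB1-AS1* on the opposite strand.

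*SNAI2* encodes SLUG, a repressor of *CDH1*. The gene (ENSG00000019549, chromosome 8 from 48917598 to 48921740) had 26.1, 32.1 and 8.98 CPM in COL1-PC3SFRP2, against 23.98, 19.0 and 23.0 CPM in COL1-PC3. Library 3 was the lowest of all 12, and the other 2 libraries were above those of COL1-PC3. This gave a log2 fold change of 0.04 (95% confidence interval -0.63 to 0.71, adjusted p = 0.944, edgeR), and it was 0.41 without library 3 (adjusted p = 0.0585) and 0.82 with the GC correction (adjusted p = 0.00218). On CCP, *SNAI2* had 28.2, 28.7 and 29.2 CPM in CCP-PC3SFRP2, against 16.1, 17.9 and 20.1 CPM in CCP-PC3. These groups did not overlap, which held for 20.2% of all genes in this comparison. A log2 fold change of 0.67 (SE 0.31) was estimated, with an unadjusted p of 0.0468 and an adjusted p of 1. It passed without library 3 of COL1-PC3SFRP2 (0.68, adjusted p = 0.00757), after GC correction (0.80, adjusted p = 0.0346) and in a fit of the 6 CCP-grown libraries of the comparison (0.72, adjusted p = 0.000264). Library 3 of COL1-PC3SFRP2 belongs to neither of the groups compared here, but it enters the spread that the fit shares over all 12 libraries.

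*TWIST1* encodes a basic helix-loop-helix factor. The gene (ENSG00000122691, chromosome 7 from 19020991 to 19117636) had 6.48, 8.26 and 14.4 CPM in COL1-PC3SFRP2, against 13.9, 13.1 and 14.8 CPM in COL1-PC3. In CCP-PC3SFRP2 it had 12.98 to 15.5 CPM and in CCP-PC3 13.3 to 18.3 CPM. The first and second libraries of COL1-PC3SFRP2 were the lowest of the 12, while library 3 was within the range of the other groups. The log2 fold change was -0.54 against COL1-PC3 (95% confidence interval -1.11 to 0.03, adjusted p = 0.134, edgeR) and -0.57 against CCP-PC3SFRP2 (adjusted p = 0.106). Leaving out library 3 gave -0.91 (adjusted p = 0.00154) and -0.95 (adjusted p = 0.000772), and the GC correction gave -0.97 (adjusted p = 0.00455) and -1.14 (adjusted p = 0.00136). The exons of *TWIST1* have 53.4% GC, a class whose median was 0.53 and 0.57, so that *TWIST1* lay on the opposite side of 0 from genes of like GC content. With the substituted library the values were -0.54 (adjusted p = 0.271) and -0.57 (adjusted p = 0.233).

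**Figure D3:**
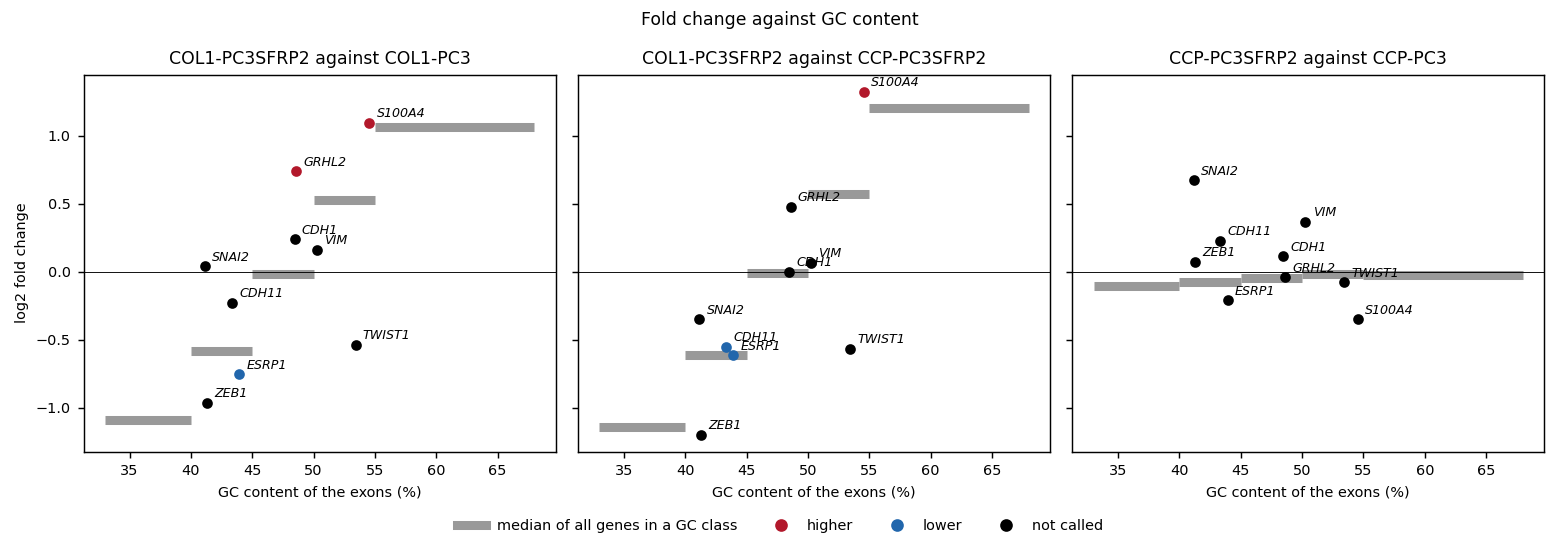
log2 fold change of 9 of the 10 genes against the GC content of their exons (x axis, in percent). *ZEB2* is left out for its 21 counts. Grey bars give the median of all genes of a GC class, with the outermost classes drawn to 33% and 68%, and colours mark genes called higher or lower. On COL1 the grey medians climb from -1.09 below 40% GC to 1.06 above 55% GC, and *TWIST1* lies furthest below its class.

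The alternatives left different genes called among the 10. Against COL1-PC3, the GC correction gave calls for *GRHL2* and *SNAI2*, both higher, and for *TWIST1*, lower, with *GRHL2* as the gene shared with the fit without it. Without library 3 the calls were *ESRP1*, *GRHL2*, *VIM*, *TWIST1* and *S100A4*, and with the substituted library none of the 10 was called, beside 223 of all genes against 7157 in the main fit. *GRHL2* was higher than in COL1-PC3 at 0.30 to 0.82 on the log2 scale under all 25 alternatives and passed under 22 of them. The part of GC content and of library 3 in these differences was not tested.

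**Figure D4:**
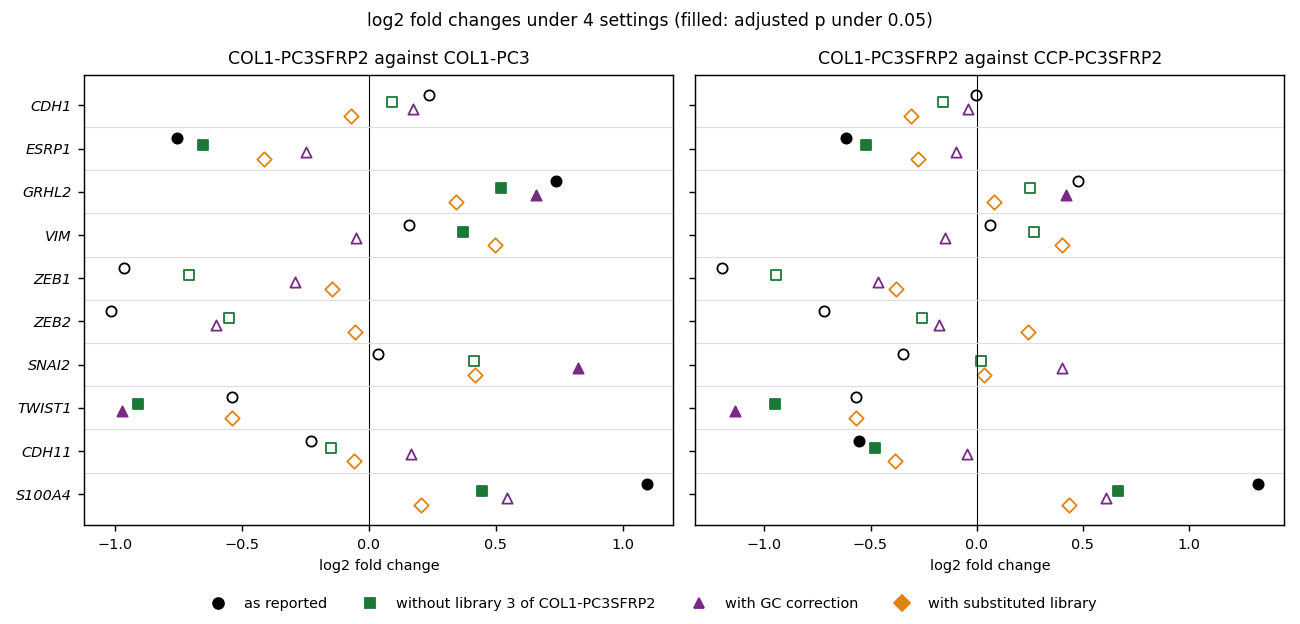
log2 fold changes of the 10 genes under 4 settings, namely as reported, after leaving out library 3 of COL1-PC3SFRP2, after GC correction, and using the substituted library. Filled symbols mark an adjusted p under 0.05. *GRHL2* is filled in 3 of 4 settings against COL1-PC3, and none of the symbols for the substituted library is filled.

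On CCP, none of the 10 genes passed between CCP-PC3SFRP2 and CCP-PC3, where 0.0786% of all genes tested did. At an unadjusted p under 0.05 there was 1 gene, *SNAI2* (4.92% of all genes), and DESeq2 called none (0.679% of all genes). The groups did not overlap for *SNAI2* and *VIM*, both higher in CCP-PC3SFRP2, and for *ESRP1*, with 339 to 344 CPM in CCP-PC3SFRP2 and 378 to 424 CPM in CCP-PC3 (log2 fold change -0.21, adjusted p = 1, edgeR), which is 3 of 10 beside 20.2% of all genes. For *S100A4* the value was -0.35 (95% confidence interval -1.06 to 0.36) and for *CDH1* 0.11 (-0.24 to 0.46).

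In control cells, none of the 10 genes passed between COL1-PC3 and CCP-PC3 in edgeR's test, where 0% of all genes did. None of the 10 had an unadjusted p under 0.05 (790 of all genes did, 3.88%), and DESeq2 called none of them (6 of all genes, 0.0295%). The largest values were for *ZEB2*, at 1.48 with a 95% confidence interval of -1.32 to 4.27, and for *GRHL2*, at -0.30 (-0.70 to 0.09). *GRHL2* and *CDH1* were lower in every library of COL1-PC3 than in any of CCP-PC3, and *VIM* was higher, against 12.3% of all genes whose groups did not overlap.

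The difference between the SFRP2 effect on COL1 and that on CCP was tested as an interaction. None of the 10 genes passed in edgeR's test, against 6.32% of all genes tested, while 3 had an unadjusted p under 0.05 (30.4% of all genes) and the same 3 passed in DESeq2 (29.6% of all genes). These were *S100A4* (1.44, 95% confidence interval 0.44 to 2.45, adjusted p = 0.0660, edgeR), *GRHL2* (0.78, 0.23 to 1.34, adjusted p = 0.0691) and *ESRP1* (-0.54, -1.01 to -0.08, adjusted p = 0.113). Calls of these genes on COL1 and their absence on CCP therefore do not show that the effects differed. Without library 3 of COL1-PC3SFRP2 all 3 and *TWIST1* passed (adjusted p = 0.0122 to 0.0399), and with the substituted library none did.

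Among themselves, the 10 genes spanned a wide range of levels. Scaled to exon length, the mean level in COL1-PC3SFRP2 was 95.8 CPM per kb for *S100A4*, 45.7 for *ESRP1*, 28.01 for *VIM*, 24.1 for *CDH1* and 12.7 for *GRHL2*. It was 6.82 CPM per kb for *SNAI2*, 5.54 for *CDH11*, 4.86 for *TWIST1*, 0.124 for *ZEB1* and 0.00585 for *ZEB2*. In CCP-PC3 the order began with *ESRP1* at 81.2 CPM per kb, followed by *S100A4* at 48.6, *CDH1* at 22.3 and *VIM* at 20.8. Transcripts of E-cadherin and vimentin were thus present at like levels per length in the same cultures, although bulk RNA cannot tell cells that hold both from a mixture, nor fewer cells of a kind from less RNA per cell. The log2 ratio of *VIM* to *CDH1* CPM was 0.34, 0.36 and -0.81 in COL1-PC3SFRP2, against 0.23, -0.01 and -0.03 in COL1-PC3. It was -0.18, -0.01 and -0.05 in CCP-PC3SFRP2, against -0.44, -0.20 and -0.36 in CCP-PC3, so that these CCP groups did not overlap. How often the ratios of other gene pairs do not overlap was not examined. For *CDH11* to *CDH1* the log2 ratio was -0.75, -0.79 and -1.42 in COL1-PC3SFRP2, below the -0.65, -0.65 and -0.32 of COL1-PC3. On CCP this second ratio overlapped, at -0.38, -0.53 and -0.43 in CCP-PC3SFRP2 against -0.67, -0.54 and -0.46 in CCP-PC3.

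E-cadherin acts in a complex with catenins. *CTNNA1*, the gene of α-catenin, which is deleted in PC3, was at 0.587 to 2.40 CPM in the 12 libraries. *CTNNB1*, the gene of β-catenin, averaged 158 CPM in COL1-PC3SFRP2 and 125 CPM in COL1-PC3, with a log2 fold change of 0.35 and an adjusted p of 0.0982 (edgeR, against 0.0104 in DESeq2). It passed under 8 of 25 alternatives, and the GC correction gave *CTNNB1* 1.13 (adjusted p = 0.000583) against COL1-PC3 and 1.03 (adjusted p = 0.00133) against CCP-PC3SFRP2, where the value was otherwise 0.13 (adjusted p = 0.551). *CTNND1*, the gene of p120-catenin, which keeps E-cadherin at the membrane, had 6.79, 10.2 and 2.59 CPM in COL1-PC3SFRP2, against 22.7, 24.8 and 23.9 CPM in COL1-PC3. It was lower in all 3 libraries, with a log2 fold change of -1.83 (SE 0.31, adjusted p = 0.000999, edgeR), and remained called without library 3 (-1.47) and after GC correction (-1.48), but not with the substituted library (-0.87, adjusted p = 0.143). *JUP*, the gene of plakoglobin, had 179, 139 and 567 CPM in COL1-PC3SFRP2, against 159, 103 and 82.0 CPM in COL1-PC3, groups that overlap. Its log2 fold change of 1.36 (adjusted p = 0.0164, edgeR) was 0.48 (adjusted p = 0.125) without library 3, 0.19 after GC correction (adjusted p = 0.644) and 0.10 with the substituted library (adjusted p = 0.896).

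The list named for the cadherin-catenin complex also holds genes outside that complex, such as those of the nectins. Of its 10 genes, 4 were higher and 2 lower in COL1-PC3SFRP2 than in COL1-PC3, where 35.1% of all genes were called. The higher ones included *NECTIN2* (log2 fold change 1.36) and *NECTIN1* (0.81), which encode adhesion proteins, and the lower ones *CTNND1* and *VCL* (-0.53), the gene of vinculin. Against CCP-PC3SFRP2, 3 were higher, among them *JUP* (1.97) and *NECTIN2* (1.65), and 2 lower, with *CTNND1* at -1.89 and *NECTIN3* at -1.26. After GC correction 2 were higher and 1 lower against COL1-PC3, *NECTIN1* turned to -0.26 and *CTNND1* was at -1.48. With the substituted library none of the 10 was called in either comparison.

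Other epithelial genes were called in both directions. Of 40 tested, 23 were higher and 4 lower in COL1-PC3SFRP2 than in COL1-PC3, with a median log2 fold change of 0.89 over the list and 0.01 over all genes, beside 18.1% of all genes called higher and 17.1% lower, and the genes of the list had a median GC content of 56.9%. The higher ones were led by the tight junction claudins *CLDN3* (1.99, adjusted p = 0.00481, edgeR) and *CLDN4* (1.94), and the lower ones by *MAL2* (-1.83), which acts in apical transport, and the desmosomal cadherin *DSG2* (-1.59). The GC correction left 5 higher and 5 lower, and with the substituted library none was called. *MAL2* averaged 524 ± 163 CPM in COL1-PC3SFRP2 and 1864 ± 246 CPM in COL1-PC3 (SD, n = 3 each), and it stayed called with the GC correction (-1.13), as did *DSG2* (-0.74), while *CLDN3* (0.67, adjusted p = 0.133) and *CLDN4* (0.96, adjusted p = 0.178) did not. Against CCP-PC3SFRP2, 24 were higher and 6 lower, led by *CLDN3* (2.67) and the polarity gene *CRB3* (2.50) and by *MAL2* (-1.62) and *DSG2* (-1.51), with 10 higher and 5 lower after GC correction and none called with the substituted library.

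Of 32 mesenchymal genes tested, 7 were higher and 3 lower in COL1-PC3SFRP2 than in COL1-PC3, with a median log2 fold change of 0.42, so that 10 of 32 is close to the 35.1% of all genes called. After GC correction 5 were higher and 4 lower, and with the substituted library 1 was called. *COL6A2* (1.81), a collagen VI chain, and *EMP3* (1.09), a membrane protein, led the higher genes, and *COL5A2* (-1.13), a collagen V chain, and *WNT5A* (-0.98), a WNT ligand, the lower ones. Of these, *EMP3* (0.27, adjusted p = 0.331) and *WNT5A* (-0.45, adjusted p = 0.0785) lost their calls after GC correction, while *COL6A2* was at 0.42 (adjusted p = 0.0420) and *COL5A2* at -1.16. Against CCP-PC3SFRP2, where 37.6% of all genes were called, 9 were higher and 3 lower, with *TAGLN* at 2.30 and *LGALS1*, the gene of galectin-1, at 1.82 and with *WNT5A* at -1.38 and *COL5A2* at -0.95. The balance turned after GC correction, with 5 higher and 8 lower, and with the substituted library 2 were called, both higher. *LGALS1* was at 0.63 after GC correction (adjusted p = 0.00800) and at 0.90 with the substituted library (adjusted p = 0.131). *TAGLN*, which encodes the actin-binding protein transgelin, averaged 9.73 ± 3.91 CPM in COL1-PC3SFRP2 and 1.97 ± 0.445 CPM in CCP-PC3SFRP2 (SD, n = 3 each) and passed under all 25 alternatives, the substituted library included (2.26, adjusted p = 0.0387, edgeR).

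Of 15 other EMT transcription factors tested, none was higher and 4 were lower in COL1-PC3SFRP2 than in COL1-PC3, beside 35.1% of all genes called (18.1% higher and 17.1% lower). *SOX4*, a SOX-family factor, averaged 34.4 ± 1.26 CPM in COL1-PC3SFRP2 and 79.6 ± 8.13 CPM in COL1-PC3 (SD, n = 3 each), a log2 fold change of -1.21 (adjusted p = 0.000342, edgeR). It passed under all 25 alternatives, with -1.64 after GC correction and -0.98 for the substituted library. *FOXC1*, a forkhead factor, was lower too (-1.11) and was at -1.77 after GC correction and -0.64 with the substituted library (adjusted p = 0.148). Against CCP-PC3SFRP2, 2 were higher, *TCF3* (1.07) and *FOSL1* (0.91), and 4 lower, with *FOXC1* at -1.12 and *SOX4* at -1.08. After GC correction *TCF3* (-0.17) and *FOSL1* (-0.13) turned to the other direction and were not called.

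The S100 genes, relatives of *S100A4*, were called in 1 direction, with 5 of 11 higher than in COL1-PC3 (18.1% of all genes) and 7 of 11 higher than in CCP-PC3SFRP2 (19.9% of all genes). *S100A6* (1.77 and 2.07) led in both, with *S100A14* (0.95) against COL1-PC3 and *S100P* (1.63) against CCP-PC3SFRP2. *S100A6* averaged 6441 ± 5281 CPM in COL1-PC3SFRP2 and 1892 ± 338 CPM in COL1-PC3 (SD, n = 3 each). The GC correction left none higher and 1 lower against COL1-PC3, and leaving out library 3 gave 2 higher and 1 lower, so that the single direction was lost in both. With the substituted library none was called in either comparison.

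Other splicing regulators were called in both directions. Of 9 tested, 2 were higher and 4 lower in COL1-PC3SFRP2 than in COL1-PC3, and as many against CCP-PC3SFRP2, where 35.1% and 37.6% of all genes were called. In both comparisons none was higher and 2 were lower after GC correction, and none was called with the substituted library. *ESRP2*, the close relative of *ESRP1*, was higher at 0.87 against COL1-PC3 (adjusted p = 0.0273, edgeR) and 1.13 against CCP-PC3SFRP2, so that *ESRP1* and *ESRP2* moved in opposite directions. *ESRP2* averaged 84.7 ± 46.9 CPM in COL1-PC3SFRP2, 38.7 ± 4.31 CPM in CCP-PC3SFRP2 and 46.3 ± 4.87 CPM in COL1-PC3 (SD, n = 3 each), with 56.9% GC in its exons. After GC correction the log2 fold change of *ESRP2* against COL1-PC3 was -0.0022 (adjusted p = 0.996), and without library 3 it was 0.33 (adjusted p = 0.0852). *SRSF1* was lower (-1.66 and -1.40) and was still called after GC correction (-0.69 and -0.39). *MBNL2* was lower too (-1.36 and -1.26), but lost its call under 5 of 25 alternatives in each comparison, the GC correction among them (-0.25 and -0.11). *PTBP1* was higher against CCP-PC3SFRP2 (0.96), turning to -0.17 with the GC correction.

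Of 11 corepressors that act with ZEB and SNAI factors, 3 were higher and 5 lower in COL1-PC3SFRP2 than in COL1-PC3, and 2 were higher and 5 lower than in CCP-PC3SFRP2, beside 35.1% and 37.6% of all genes called. After GC correction these were 0 higher and 3 lower and 1 higher and 3 lower, and with the substituted library none was called. *BMI1*, a Polycomb component that acts with TWIST1, averaged 20.1 ± 12.5 CPM in COL1-PC3SFRP2 and 131 ± 21.2 CPM in COL1-PC3 (SD, n = 3 each), a log2 fold change of -2.70 (adjusted p = 0.000400, edgeR). It was -1.83 after GC correction and -1.16 with the substituted library (adjusted p = 0.160). *SUZ12*, of the other Polycomb complex, was lower as well (-1.59), but lost its call under 6 of 25 alternatives, among them the GC correction (-0.65, adjusted p = 0.127) and the substituted library (-0.58, adjusted p = 0.274). In the other direction, the DNA methyltransferase gene *DNMT1* (0.82) and *SMARCA4* (0.81), a chromatin remodelling ATPase, were higher, and both lost their calls with the GC correction, at 0.02 and -0.28. No gene of the 7 lists was called between CCP-PC3SFRP2 and CCP-PC3 or between COL1-PC3 and CCP-PC3 in edgeR's test. Of the 32 mesenchymal genes tested, 6 and 4 had an unadjusted p under 0.05 in these comparisons, beside 4.92% and 3.88% of all genes. DESeq2 called 2 of the 32 higher and 0 lower in each, beside 0.679% and 0.0295% of all genes called.

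**Figure D5:**
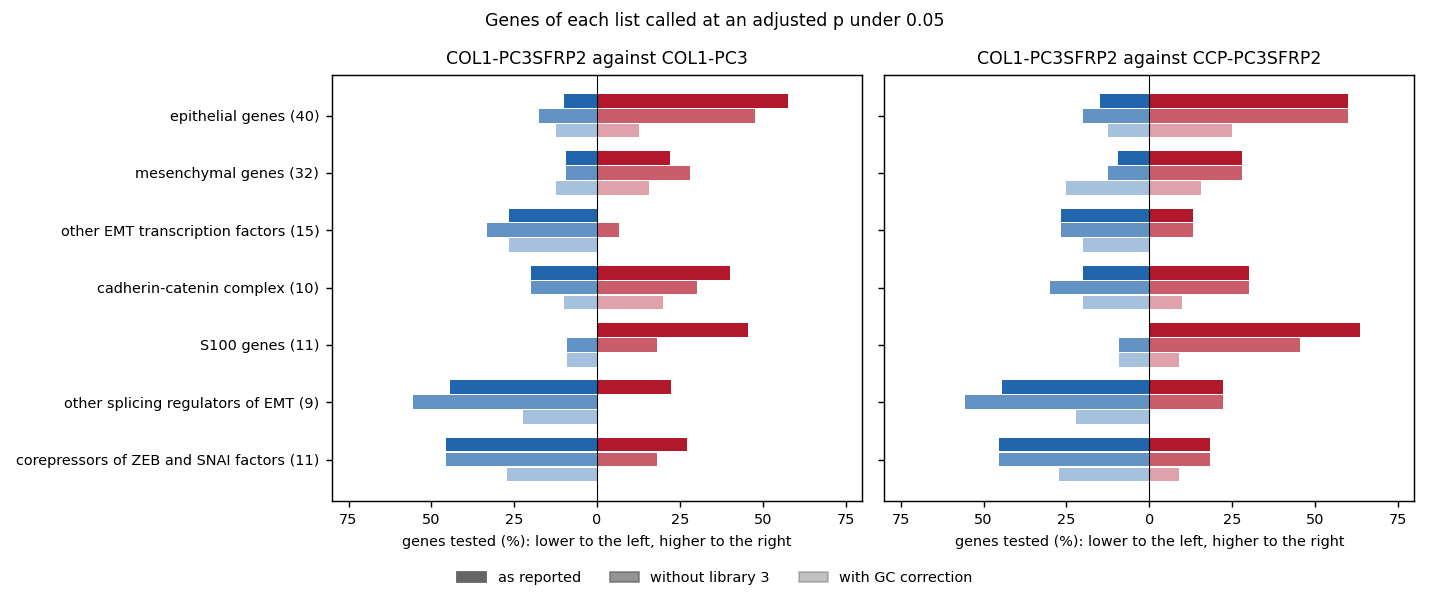
Share of the genes of each list called lower (left of 0) or higher (right of 0), in percent of the genes tested, whose number stands in brackets. Full, medium and light bars give the fit as reported, without library 3 of COL1-PC3SFRP2 and with the GC correction. For epithelial genes against COL1-PC3 these were 23, 19 and 5 genes higher.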

How the data were processed

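RNA from 12 samples of PC3 cells (4 groups of 3 libraries) was sequenced. Per the submitters' processing notes the authors aligned reads with STAR to GRCh38, and they deposited whole-number counts per Ensembl gene; the counter and its strand setting are not given in the sources used here. Of the deposited tables, the sheet of triplicates was analysed, and for alternatives the column substituted for library 3 of COL1-PC3SFRP2 and 11 columns of a second alignment. A further 56 columns were not mapped or not used. Gene names, exon length and GC content came from GENCODE release 44.

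Counts were normalised by TMM and tested in edgeR 4.0.16 (R 4.3.3) with the robust quasi-likelihood test, in 1 fit of the 4 groups over genes with 10 or more summed counts, with Benjamini-Hochberg adjustment over all genes tested and a threshold of 0.05. Alternatives were DESeq2 1.42.0, other scaling and filters, fits of 6 libraries, leaving out each library, a replicate block, a GC and length correction (splines with 5 and 4 df), the second alignment and the substituted library. The substitution together with GC correction was added after seeing the data. The script was tested on simulated data. All 10 genes are named, and from each of the 7 lists (epithelial, mesenchymal, other EMT transcription factors, cadherin-catenin complex, S100, splicing regulators, corepressors) up to 2 genes a direction with the largest called change, a mean of 1 CPM or more and no overlap of libraries, for the comparisons with COL1-PC3SFRP2. The members and lists were chosen with earlier results of these data known.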

Additional observations from a re-analysis of the deposited data

Results flagged for a closer look

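For 9 of the named genes outside the 10, the SFRP2 effect on COL1 differed from that on CCP by the interaction test. Values are log2 differences of the effects (edgeR, Benjamini-Hochberg over all genes tested). Of all genes tested, 6.32% passed this test. These 9 genes had been named for large called changes in comparisons with COL1-PC3SFRP2, whose libraries also enter the interaction. Passing was therefore favoured by the choice and is no independent support. *CTNND1* had a difference of -1.58 (adjusted p = 0.0438), with an effect of -1.83 on COL1 and -0.25 on CCP. *MAL2* had a difference of -1.36 (adjusted p = 0.0315), with -1.83 on COL1 and -0.47 on CCP. For *DSG2* it was -1.50 (adjusted p = 0.0427), with -1.59 and -0.10. *CRB3* stood at 2.09 (adjusted p = 0.0474), with 1.54 on COL1 and -0.55 on CCP. For *COL6A2* the difference was 1.64 (adjusted p = 0.0498), with 1.81 and 0.17. *SOX4* had -0.82 (adjusted p = 0.0458), with -1.21 on COL1 and -0.39 on CCP. *FOXC1* had -1.15 (adjusted p = 0.0449), with -1.11 and 0.04. *S100A6* had 1.91 (adjusted p = 0.0474), with 1.77 on COL1 and -0.15 on CCP. *BMI1* had the largest difference, -2.37 (adjusted p = 0.0315), with -2.70 and -0.32. These calls were made under 8 to 13 of 24 alternatives, and none of the 9 passed with the substituted library (adjusted p = 0.757 to 0.770). After GC correction 3 of the 9 no longer passed, namely *CRB3* (1.09, adjusted p = 0.115), *COL6A2* (0.27, adjusted p = 0.514) and *S100A6* (0.83, adjusted p = 0.256).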

How the results depend on the processing

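Counts of genes called are given in the order COL1-PC3SFRP2 against COL1-PC3, CCP-PC3SFRP2 against CCP-PC3, COL1-PC3 against CCP-PC3, COL1-PC3SFRP2 against CCP-PC3SFRP2 and the interaction, first for the 10 genes and then for all genes tested. As reported these were 3, 0, 0, 3 and 0 of the 10 and 7157, 16, 0, 7665 and 1287 of all genes. DESeq2 gave 3, 0, 0, 4 and 3 of the 10 and 7804, 98, 6, 8339 and 3921 of all genes. Without a filter on low counts there were 3, 0, 0, 4 and 1 of the 10 and 7041, 97, 11, 7564 and 3710 of all genes. edgeR's filterByExpr left 3, 0, 0, 4 and 0 of the 10 and 7400, 19, 0, 7978 and 1945 of all genes. Fits of the 6 libraries compared (no interaction) gave 1, 2, 0 and 1 of the 10 and 2522, 891, 13 and 4711 of all genes. The GC correction gave 3, 1, 0, 2 and 0 of the 10 and 3605, 69, 0, 3348 and 661 of all genes. GC correction without library 3 of COL1-PC3SFRP2 gave 4, 2, 0, 2 and 2 of the 10 and 4294, 845, 342, 3897 and 1744 of all genes. The second alignment, of 11 libraries, gave 4, 1, 0, 4 and 3 of the 10 and 6925, 400, 35, 7361 and 4008 of all genes. The substituted library left 0, 0, 0, 0 and 0 of the 10 and 223, 59, 3, 4 and 0 of all genes. Together with GC correction it left 2, 1, 0, 0 and 0 of the 10 and 1598, 299, 21, 868 and 6 of all genes. Leaving out each library in turn gave 2 to 5, 0 to 1, 0 to 0, 2 to 5 and 0 to 4 of the 10 and 4401 to 8296, 5 to 384, 0 to 38, 5747 to 8768 and 2 to 5515 of all genes.

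The sample labels do not say whether replicate numbers shared between groups pair the samples. Correlations of same-numbered libraries' deviations from their group means ranged from -0.416 to 0.313. With 3 libraries a group, these correlations cannot settle the pairing. With the replicate number as a block (replicate block) the genes called were 3, 0, 0, 3 and 0 of the 10 and 6170, 13, 0, 6909 and 2 of all genes. With the block and the GC correction they were 3, 0, 0, 2 and 0 of the 10 and 3228, 57, 0, 3013 and 490 of all genes. The block changed no call of the 10 genes in the fit without GC correction.

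Of 150 values under alternatives for the 6 calls among the 10 genes, 117 stayed past the threshold in the same direction, 32 no longer passed and 1 turned, and of 1081 values for results not called 67 turned; where no cause is given below, the cause was not tested. The following log2 values had the opposite sign to the reported ones. COL1-PC3SFRP2 against COL1-PC3 after GC correction gave *VIM* -0.051, *CDH11* 0.17, *NECTIN1* -0.26, *ESRP2* -0.0022 and *SMARCA4* -0.28. COL1-PC3 against CCP-PC3 after GC correction gave *ESRP1* 0.0037 and *CDH11* 0.0043. COL1-PC3SFRP2 against CCP-PC3SFRP2 after GC correction gave *VIM* -0.15, *SNAI2* 0.40, *TCF3* -0.17, *FOSL1* -0.13, *PTBP1* -0.17, *SMARCA4* -0.13 and *DNMT1* -0.094. The interaction after GC correction gave *SNAI2* 0.027. COL1-PC3SFRP2 against COL1-PC3 after GC correction with the block gave *VIM* -0.073, *CDH11* 0.17, *NECTIN1* -0.26, *ESRP2* -0.013 and *SMARCA4* -0.28. COL1-PC3 against CCP-PC3 after GC correction with the block gave *ESRP1* 0.0047. COL1-PC3SFRP2 against CCP-PC3SFRP2 after GC correction with the block gave *VIM* -0.17, *SNAI2* 0.39, *TCF3* -0.17, *FOSL1* -0.14, *PTBP1* -0.17, *SMARCA4* -0.13 and *DNMT1* -0.10. The interaction after GC correction with the block gave *SNAI2* 0.016. COL1-PC3SFRP2 against COL1-PC3 after GC correction without library 3 of COL1-PC3SFRP2 gave *CDH11* 0.073, *JUP* -0.21, *NECTIN1* -0.31, *ESRP2* -0.23 and *SMARCA4* -0.31. COL1-PC3 against CCP-PC3 after GC correction without library 3 of COL1-PC3SFRP2 gave *ESRP1* 0.0045 and *CDH11* 0.0088. COL1-PC3SFRP2 against CCP-PC3SFRP2 after GC correction without library 3 of COL1-PC3SFRP2 gave *ZEB2* 0.14, *SNAI2* 0.55, *TCF3* -0.13, *FOSL1* -0.11, *ESRP2* -0.042, *PTBP1* -0.16 and *SMARCA4* -0.17. The interaction after GC correction without library 3 of COL1-PC3SFRP2 gave *CDH1* -0.087 and *SNAI2* 0.18. COL1-PC3SFRP2 against COL1-PC3 with the substituted library gave *CDH1* -0.071. COL1-PC3SFRP2 against CCP-PC3SFRP2 with the substituted library gave *ZEB2* 0.24 and *SNAI2* 0.034. The interaction with the substituted library gave *CDH1* -0.18 and *VIM* 0.13. COL1-PC3SFRP2 against COL1-PC3 with the substituted library and GC correction gave *CDH1* -0.11, *ZEB1* 0.081, *ZEB2* 0.057, *CDH11* 0.063, *S100A4* -0.015, *JUP* -0.34, *CLDN3* -0.089, *NECTIN2* -0.031, *NECTIN1* -0.34, *S100A14* -0.11, *ESRP2* -0.20 and *SMARCA4* -0.092. COL1-PC3 against CCP-PC3 with the substituted library and GC correction gave *ESRP1* 0.0046 and *CDH11* 0.0047. COL1-PC3SFRP2 against CCP-PC3SFRP2 with the substituted library and GC correction gave *ZEB2* 0.49, *SNAI2* 0.34, *TCF3* -0.081, *FOSL1* -0.14, *ESRP2* -0.0066 and *PTBP1* -0.043. The interaction with the substituted library and GC correction gave *CDH1* -0.22 and *VIM* 0.051. COL1-PC3SFRP2 against COL1-PC3 with the second alignment gave *CTNNA1* -0.20. COL1-PC3SFRP2 against CCP-PC3SFRP2 with the second alignment gave *SNAI2* 0.035. The interaction with the second alignment gave *CDH1* -0.031. Under other settings, *SNAI2* had -0.015 for COL1-PC3SFRP2 against COL1-PC3 (replicate block), *GRHL2* had 0.013 for CCP-PC3SFRP2 against CCP-PC3 (no TMM), *GRHL2* had 0.019 for CCP-PC3SFRP2 against CCP-PC3 (no filter on low counts), *GRHL2* had 0.0043 for CCP-PC3SFRP2 against CCP-PC3 (6 libraries) and *CDH1* had 0.025 for COL1-PC3SFRP2 against CCP-PC3SFRP2 (filterByExpr). Leaving out each library in turn gave values of both signs for COL1-PC3SFRP2 against COL1-PC3 *ZEB2* from -4.44 to 0.83 and *SNAI2* from -0.32 to 0.41, for CCP-PC3SFRP2 against CCP-PC3 *GRHL2* from -0.051 to 0.042, *ZEB1* from -0.24 to 0.37 and *TWIST1* from -0.16 to 0.15, for COL1-PC3 against CCP-PC3 *ZEB1* from -0.63 to 0.24, *ZEB2* from -0.38 to 4.40, *TWIST1* from -0.19 to 0.071 and *S100A4* from -0.28 to 0.0069, for COL1-PC3SFRP2 against CCP-PC3SFRP2 *CDH1* from -0.16 to 0.017, *VIM* from -0.13 to 0.27, *SNAI2* from -0.75 to 0.020 and *CTNNB1* from -0.0031 to 0.15 and for the interaction *CDH1* from -0.023 to 0.16 and *VIM* from -0.41 to 0.0064.

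Depth limits *ZEB2* in particular, whose 21 counts bound its change little. With 3 libraries a group the fits rest on few samples, and leaving out a library leaves 2 in its group. For comparisons with COL1-PC3SFRP2, values without library 3 and after GC correction stand beside many, but not all, of the genes whose call they change.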
